A study of Mus musculus with 8 samples.

Results

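Whole ventricles of C57BL/6J mice, an inbred laboratory strain, were compared at postnatal day 12 (P12) and postnatal day 3 (P3), with 2 RNA sequencing libraries per stage. The members of the comparison were all genes with a normalized count of at least 10 in 2 or more of these 4 libraries, which was 13774 of the 21970 genes in the deposited table. The mice of both stages carried no label of a treatment or an altered allele, and the groups differed by age alone as far as the labels say. The series also holds P6 and P24 ventricles, with 2 libraries each, and its title concerns retinoic acid signalling, cell cycle exit and maturation of heart muscle cells after birth. Nothing in the labels says whether the 2 libraries of a stage came from separate animals, or how many ventricles were pooled, so the p-values here speak only of library-to-library spread.

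The heart of a newborn mouse still holds dividing muscle cells that use mainly glucose and lactate and contain fetal forms of the contractile proteins. In the weeks after birth these cells replicate DNA for the last time and stop dividing, many become binucleate, and they enlarge. They then build the mitochondria, tubules and adult protein forms of a muscle that runs mainly on fatty acids. Whole ventricle also contains fibroblasts, vessel cells and immune cells, and in such bulk RNA fewer cells of a type and less RNA per cell cannot be told apart.

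Reads in protein-coding genes, recovered from the normalized counts, numbered 23752999 and 23691022 at P3 and 27115890 and 28745112 at P12. The ventricular muscle genes were at high levels in all 4 libraries: Myl2, the ventricular regulatory myosin light chain, had FPKM (reads per length and depth) of 4154 and 4719 at P3 and 3759 and 4132 at P12. The median gene differed between the 2 libraries of a stage by 0.152 (absolute log2 difference) at P3 and by 0.144 at P12. The libraries also differed in ways that the stage labels do not name. Y-linked genes had 7182 reads in P12 replicate 1, 1 read in P12 replicate 2, and 4 and 2 reads in the P3 libraries. P3 replicate 1 had higher summed normalized counts than P3 replicate 2 for atrial markers (14269 and 6522) and matrix genes (505758 and 373838). Among atrial markers, Myl7 and Myl4 were higher in P3 replicate 1, Bmp10 was lower and Nppa was about level. Relative to each gene's own mean (log2 scale), the 10% of genes with the shortest transcripts were at -0.21 and -0.17 at P3 and at 0.12 and 0.25 at P12, and the longest 10% moved the other way. Values after removal of a trend with gene length are therefore given beside a number of gene groups.

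From P3 to P12 a large share of all genes changed: 6545 of 13774 (47.5%) passed the threshold of a Benjamini-Hochberg (BH) adjusted p below 0.05 in limma, a linear model with moderated variances, on log2(normalized count + 1). Of all genes tested, 21.6% rose (2977 genes) and 25.9% fell (3568 genes), with a median log2 change of -0.04. A value in parentheses after a gene name is that gene's log2 change, P12 minus P3. At least 2-fold changes passed the threshold for 1722 genes (12.5%), of which 757 rose (5.5% of all genes tested) and 965 fell (7.01%). The values of the stages did not overlap for 76.2% of all genes tested, and the smallest p that an exact two-sided permutation test of 2 against 2 libraries allows is 0.333, so calls rest on the variance shared across genes. Most genes named below were picked by the size of their change or by its call. That the libraries of the stages lie apart for such a gene describes it and adds no support. Of the 6545 calls, 3332 held in each of the 4 fits with 1 library left out, and 3405 held, in the same direction, in a fit over all 8 libraries of the series. When libraries were scaled by library size alone, 30.7% of the changed genes rose, against 45.5% with the authors' scaling, and this scaling placed the median gene -0.14 (log2) from where the authors' scaling put it. Without P12 replicate 2 the number of changed genes was 4014.

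**Figure D1:**
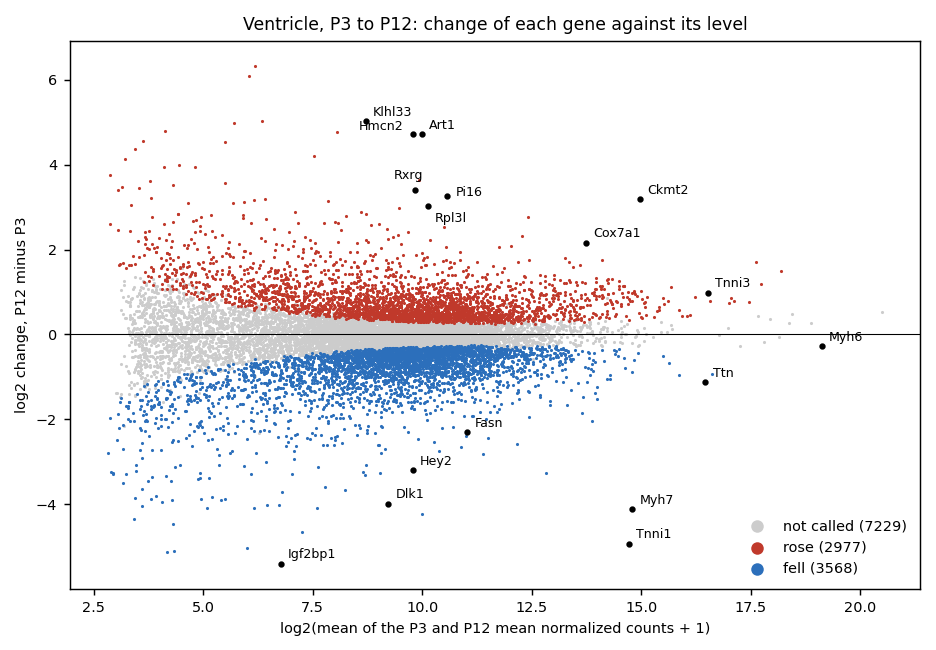
Log2 change from P3 to P12 of each of the 13774 genes tested (vertical axis) against log2 of its mean normalized count (horizontal axis), with genes that rose in red, genes that fell in blue and the others in grey. Tnni1 and Myh7 lie lowest among the abundant genes, at -4.93 and -4.12, and Ckmt2 lies highest among them at 3.19.

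The largest falls included genes of the fetal heart. Tnni1, the slow skeletal troponin I that the fetal heart uses, had normalized counts of 44646 and 59147 at P3 and 886 and 3197 at P12. Both P12 libraries lay far below both P3 libraries, and the log2 change was -4.93 (SE 0.45, BH-adjusted p = 4.56e-05 in limma). Myh7, the slow heavy chain of myosin in the fetal mouse ventricle, had normalized counts of 44739.9 and 63139.7 at P3 and 3030.5 and 3086 at P12, a fall of 17.6-fold at a log2 change of -4.12 (SE 0.15, BH-adjusted p = 5.86e-07 in limma). Igf2bp1, an RNA-binding protein of fetal tissues, was close to absent at P12: its normalized counts were 256 and 167 at P3 and 2.11 and 6.74 at P12 (log2 change -5.41, SE 0.44, BH-adjusted p = 2.94e-05 in limma). It passed the filter through its P3 values alone, so its lower P12 values add no support. The other genes among the 10 largest falls were Olfr608, annotated as an olfactory receptor gene (-5.04), Prss35, a serine protease relative (-4.65), Myl7, the atrial regulatory light chain (-4.24), Cnn1, the calponin of smooth muscle (-4.10), Plppr1, a phospholipid phosphatase relative (-4.09), Aldoc, the brain form of aldolase (-4.03), and Cdh3, placental cadherin (-4.02). For Myl7, with normalized counts of 4004 and 52.4 at P3 and 28.4 and 19.3 at P12, P3 replicate 1 alone was high, and its call was lost without either P12 library and in the fit over all 8 libraries.

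The largest rises included genes that were near the detection limit at P3. Lypd8l had 0 and 2 reads at P3 and 171 and 83 at P12, a ratio of 119 after scaling with an exact 95% interval of 32.6 to 989 that covers counting error only. Klhl33, a kelch-family gene, rose from normalized counts of 25.3 and 21.8 at P3 to 957 and 672 at P12, a log2 change of 5.03 (SE 0.21, BH-adjusted p = 1.26e-06 in limma). Both genes were picked for the size of their rise, and Lypd8l passed the filter through its P12 values alone. That their P12 libraries lay above their P3 libraries therefore adds no support, and the interval does not allow for this choice. Others among the 10 largest were Pnpla3, a lipase-like protein of lipid droplets (5.02), Strit1, whose micropeptide stimulates the calcium pump of the sarcoplasmic reticulum (4.995), Cbr2, a carbonyl reductase (4.77), Hmcn2, a matrix protein of the hemicentin family (4.72), Art1, an ADP-ribosyltransferase of muscle (4.72), Plaat1, a phospholipid-modifying acyltransferase (4.22), and Klhdc8a, a kelch-domain gene (3.63). The mean of Strit1 was 25.1 at P6, 100.2 at P12 and 94.9 at P24, and that of Art1 was 354, 1952 and 3944.

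Among changes of at least 4-fold, 5 genes were measured with the smallest standard errors, from 0.10 to 0.11 on the log2 scale. Fatty acid synthesis fell in a pair of them: Fasn, the fatty acid synthase, had normalized counts of 3630.0 and 3311 at P3 and 691 and 714 at P12 (log2 change -2.30), and Scd4, a stearoyl-CoA desaturase of the mouse heart, had 4909.6 and 4899 at P3 and 878 and 933 at P12 (log2 change -2.44). Plagl1, an imprinted zinc-finger factor (-2.82), and Epb41l3, a protein that links membrane to cytoskeleton (-2.01), also fell, and Tuba8, an alpha-tubulin of muscle and brain, rose (2.54). The replicates of each of these genes lay within 10% of each other at both stages, which follows from choosing the smallest standard errors and adds no support.

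Growth genes of the fetus and imprinted genes, which are read from 1 parental copy, fell nearly without exception. Of 23 tested members 21 fell and 1 rose, with a median log2 change of -1.66 against -0.04 over all genes tested. Dlk1, a Notch-like membrane protein of fetal tissues, had normalized counts of 1351 and 904 at P3 and 59.01 and 78.99 at P12. Both P12 libraries lay far below either P3 library, at a log2 change of -4.00 (SE 0.21, BH-adjusted p = 5.33e-06 in limma). Peg10, a gene derived from a retrotransposon (-3.28), and Igf2, the fetal insulin-like growth factor (-2.76), fell as well. All 3 RNA-binding proteins named after Igf2 mRNA fell, Igf2bp1 at -5.41, Igf2bp2 at -1.87 and Igf2bp3 at -2.60. The receptor that clears the growth factor, Igf2r, also fell (-1.86). The member that rose was Zrsr1, an imprinted gene related to a splicing factor, with normalized counts of 255 and 253 at P3 and 369.9 and 372 at P12; that call was lost without either P12 library. The remaining member, Sgce, lay at 0.03. Between 20 and 21 of the 23 fell in the fits without a P3 library or without P12 replicate 1, and 19 did without P12 replicate 2.

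Transcription factors of the heart also fell as a group. Of 20 tested, 17 fell and 1 rose, with a median of -0.68. In the fit over all 8 libraries 11 fell and none rose. Hey2, a Notch target that marks the compact ventricular wall, had normalized counts of 1581 and 1616 at P3 and 158 and 189.8 at P12 (log2 change -3.20, SE 0.13, BH-adjusted p = 1.17e-06 in limma). Tbx20, a T-box factor needed for heart development, had 9956 and 5874 at P3 and 1379 and 1169 at P12, and P3 replicate 1 lay well above P3 replicate 2 while both P12 libraries lay below either. Myocd, the cofactor of serum response factor in muscle, fell by 1.62. Smaller falls took in Gata4 (-0.89) and Gata6 (-0.97), zinc-finger factors of heart development, Hand2 (-0.72), and the muscle enhancer factors Mef2a (-0.58), Mef2c (-0.60) and Mef2d (-0.37); the calls of Mef2c and Mef2d were lost in the fit over all 8 libraries. Hopx, a homeodomain protein without DNA binding, was the member called as rising (0.37), a call lost in 3 of the 4 leave-one-out fits, after quantile normalization, when scaled by library size alone and in the fit over all 8 libraries. Hey2 and Tbx20 were at 442 and 3697 at P6 and at 186 and 2181 at P24, so their P12 means of 174 and 1274 were below both.

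**Figure D2:**
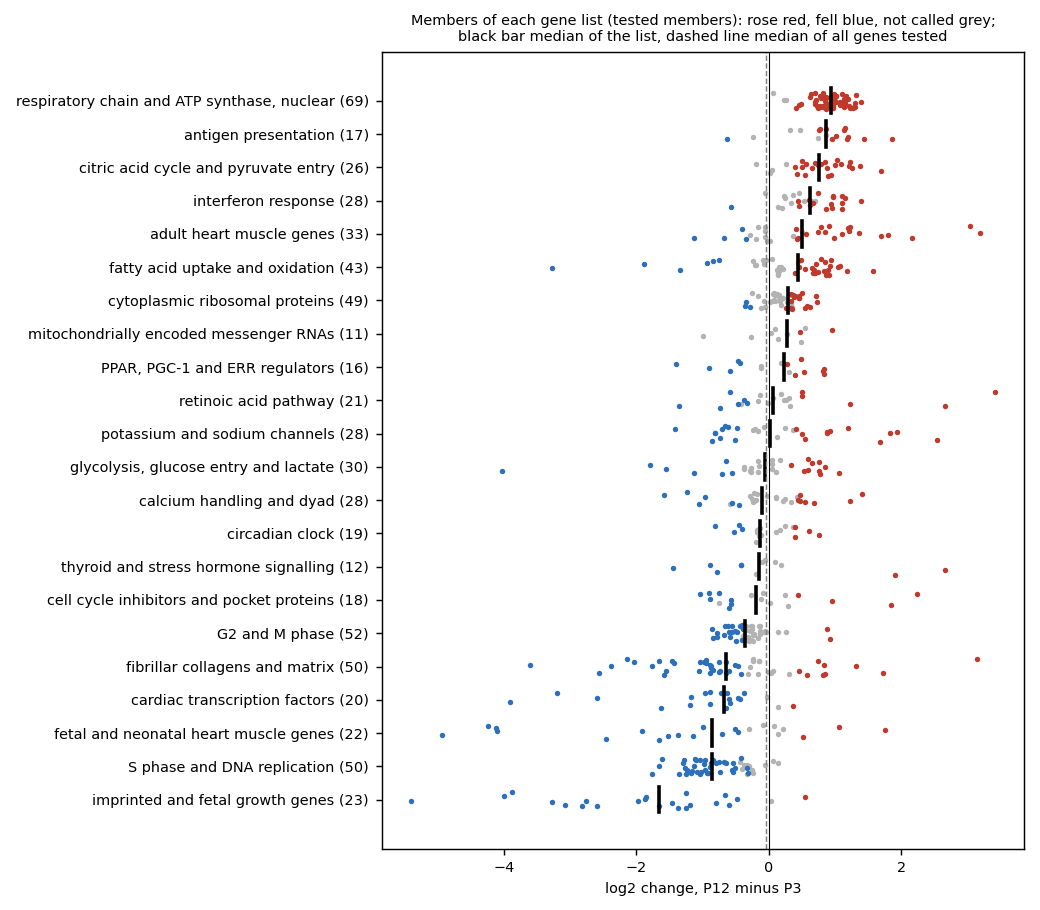
Log2 change from P3 to P12 (horizontal axis) of every tested member of 22 gene lists (rows, with the number of members tested), with rising members in red, falling members in blue and the others in grey. Black bars mark list medians, from -1.66 for imprinted and fetal growth genes to 0.94 for the respiratory chain, and the dashed line marks the median of all genes, -0.04.

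Most genes of DNA replication fell, and fewer genes of mitosis were called, though nearly all of them had negative log2 changes. Of 50 S phase genes, 38 fell and none rose, with a median of -0.87, and by library the list's mean log2 level lay at 0.08 and -0.08 at P3 and -0.97 and -0.62 at P12. Among 52 G2 and M phase genes 19 fell and 2 rose, with a median of -0.36. The log2 change was negative for 48 of the 52 and positive for 4, beside 48 and 2 of the S phase genes. The mean of the G2 and M phase list lay at 0.09 and -0.09 at P3 and -0.45 and -0.17 at P12. The difference between the lists was not tested. The number of falling mitotic genes depended on single libraries, with 7 without P12 replicate 1 and 32 without P3 replicate 2, and was 6 in the fit over all 8 libraries; for S phase the corresponding numbers were 28, 44 and 29. Both lists were lower still in the P24 libraries, at means of -2.64 and -2.67 for S phase and -3.96 and -4.01 for G2 and M phase.

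In S phase, Uhrf1, which carries DNA methylation through replication, had normalized counts of 2303 and 1937 at P3 and 534 and 716 at P12. Dtl, which controls the licensing factor Cdt1, had 810.2 and 680.1 at P3 and 208 and 264 at P12, and Cdt1 itself 930.4 and 736 at P3 and 220.2 and 328 at P12. For these genes P12 replicate 1 was the lowest library and both P12 libraries lay more than 2-fold below either P3 library. Mcm6, a subunit of the replicative helicase, fell (-1.04), as did Cdc6, which loads that helicase (-1.17). All 6 helicase subunits Mcm2 to Mcm7 fell, from -0.93 for Mcm5 to -1.29 for Mcm2. Pcna, the sliding clamp of DNA polymerase, did not pass the threshold, with normalized counts of 3549 and 3204 at P3 and 2386 and 3033 at P12.

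In G2 and M phase the members that fell most were Top2a, the topoisomerase that untangles chromosomes (-0.86), Cdca5, a protector of cohesion (-0.84), and Kif4, a chromosome-bound kinesin (-0.78). The call of Cdca5 was lost without P12 replicate 1, and those of Cdca5 and Kif4 in the fit over all 8 libraries. Cdk1, the main mitotic kinase, had normalized counts of 1959 and 1673 at P3 and 1425 and 2172 at P12, and Cdc20, which activates the anaphase-promoting complex, had 1041 and 905 at P3 and 948 and 1194 at P12. For both genes the stages overlapped, and log2 changes of -0.04 and 0.13 did not pass the threshold. The members that rose were Cenpa, the histone of centromeres, with 1586 and 1941 at P3 and 2942 and 3521 at P12 (log2 change 0.88, SE 0.13, BH-adjusted p = 0.000613 in limma), and Pttg1, the separase inhibitor securin, with 901 and 979 at P3 and 1717 and 1851 at P12 (log2 change 0.92, SE 0.11, BH-adjusted p = 0.000157 in limma). Both P12 libraries exceeded both P3 libraries for each of them, and both calls held when any 1 library was left out.

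E2F factors switch on many S phase genes, and their sites were searched here by the loose letters TTTNNCGC, where N is any base. Many mitotic genes carry the cell cycle homology region TTTGAA near their start. The promoters of genes from both groups are shown to set these motifs beside the changes. Each stretch is 100 bases long and lies upstream of the gene's start in RefSeq on GRCm38.p6, is written on the gene's strand, and has in capitals the matches, on either strand, of the motif it is shown for. That motif is the E2F letters in the first 4 genes and the homology region in the next 4. The stretches of Cdk1 and Cdca5 also hold the E2F letters, which are left in lower case there.
Dtl (chr1:191575545-191575644, minus strand): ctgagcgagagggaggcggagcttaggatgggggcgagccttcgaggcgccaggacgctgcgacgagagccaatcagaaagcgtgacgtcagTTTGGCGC
Mcm6 (chr1:128359736-128359835, minus strand): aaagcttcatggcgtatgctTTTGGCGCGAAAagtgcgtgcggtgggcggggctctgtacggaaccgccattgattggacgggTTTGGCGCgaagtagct
Cdc6 (chr11:98908001-98908100, plus strand): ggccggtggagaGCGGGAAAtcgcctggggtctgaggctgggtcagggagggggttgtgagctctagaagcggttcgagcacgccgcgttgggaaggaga
Uhrf1 (chr17:56303237-56303336, plus strand): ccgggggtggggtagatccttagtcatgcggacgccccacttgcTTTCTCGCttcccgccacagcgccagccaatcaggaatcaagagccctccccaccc
Cdk1 (chr10:69352913-69353012, minus strand): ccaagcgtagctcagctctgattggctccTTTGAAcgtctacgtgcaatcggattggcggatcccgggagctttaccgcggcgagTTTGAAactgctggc
Cdc20 (chr4:118437344-118437443, minus strand): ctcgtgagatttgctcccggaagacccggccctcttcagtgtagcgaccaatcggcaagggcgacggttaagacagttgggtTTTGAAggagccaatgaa
Top2a (chr11:99024190-99024289, minus strand): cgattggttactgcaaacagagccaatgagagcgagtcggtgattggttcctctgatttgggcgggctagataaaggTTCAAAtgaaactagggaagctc
Cdca5 (chr19:6084997-6085096, plus strand): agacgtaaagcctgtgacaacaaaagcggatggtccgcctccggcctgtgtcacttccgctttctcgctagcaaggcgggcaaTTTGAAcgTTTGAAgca
In the 250 bases before the start, TTTNNCGC was present on either strand in 11 of the 45 promoter windows of S phase genes (24.4%) against 6.55% of 13872 windows of all genes tested that had one. All 10 S phase genes with these letters fell, with a median of -1.03, and of the 29 with a window that lacked them 21 fell, with a median of -0.85. TTTGAA was present in 17 of 46 windows of G2 and M phase genes (37.0%) against 10.6% of all windows, and 7 of the 16 genes with it fell, with a median of -0.39, as did 10 of the 28 without it, with a median of -0.34. The E2F letters were also in 13.0% of G2 and M phase windows, and TTTGAA was in 11.1% of S phase windows. The letters CCAAT, searched as well, were in 57.8% of S phase and 69.6% of G2 and M phase windows, against 34.9% of all windows. A gene with several annotated starts has several windows. In Mcm6 a pair of matches on opposite strands overlap, so its capitals mark 3 matches. These matches are letters in a window and show no binding.

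Inhibitors of the cell cycle did not move together: of 18 tested, 4 rose and 7 fell, and 2 rose in each fit without a P12 library. Of all genes tested 21.6% rose and 25.9% fell, so the rises of the list were near the share of all genes. Gadd45a, a stress-induced inhibitor of cell cycle kinases, had normalized counts of 134 and 162 at P3 and 767 and 632 at P12, and every P12 value was more than 3 times any P3 value (log2 change 2.23, SE 0.16, BH-adjusted p = 1.75e-05 in limma). Gadd45g (0.95) and Btg2, an antiproliferative gene (0.44), also rose. Cdkn2a, which encodes p16 and p19, was called as rising from low values, 5.28 and 2.18 at P3 and 11.6 and 19.3 at P12. It passed the filter through its P12 values alone. The call of Cdkn2a was lost without either P12 library and in the fit over all 8 libraries, as was that of Btg2. Wee1, the kinase that restrains Cdk1, fell (-1.04; normalized counts 1433 and 1232 at P3 and 647 and 648 at P12), as did Rbl1, the pocket protein p107 (-0.90), Btg1 (-0.88), Gadd45b (-0.75) and Cdkn1c, the imprinted inhibitor p57 (-0.60). Meis1, a homeodomain factor known to restrain division of heart muscle cells in mice, and its relative Meis2 each fell by 0.58 (log2). For Cdkn1a, the inhibitor p21, normalized counts of 1038 and 1013 at P3 and 856 and 1083 at P12 overlapped between stages. Rb1 (0.02), Rbl2 (-0.11), Cdkn1b (-0.26), Cdkn2b (-0.76), Cdkn2c (0.29) and Cdkn2d (0.24) also did not pass the threshold. The call of Gadd45b was lost without P12 replicate 1 and in the fit over all 8 libraries, that of Cdkn1c without P12 replicate 2, and those of Meis1 and Meis2 once the gene length trend was removed.

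The messenger RNAs of some contractile proteins shifted between forms. Of 22 fetal and neonatal muscle genes 14 fell and 3 rose, with a median of -0.86, and of 33 adult heart muscle genes 19 rose and 4 fell, with a median of 0.50. After quantile normalization 15 of the adult genes rose and 10 fell. Without P12 replicate 1, 9 fetal genes fell, and 2 adult genes fell, against 1 without P12 replicate 2. Levels per length (FPKM) allow the forms of a protein to be compared within a library. Tnni3, the adult cardiac troponin I, made up 69.9% and 66.4% at P3 and 99.6% and 98.6% at P12 of the FPKM of Tnni1 and Tnni3, so the fetal form was nearly gone from the pair at P12. Both genes moved: Tnni3 itself had FPKM of 1027 and 1159 at P3 and 2085 and 2226 at P12, a log2 change of 0.98 whose call was lost in the fit over all 8 libraries. Myh6, the fast adult heavy chain, already held 94.6% and 92.8% of the pair with Myh7 at P3, against 99.5% in each P12 library. Its own level did not pass the threshold, with FPKM of 3255 and 3388 at P3 and 2759 and 2709 at P12. Troponin T and actin moved little. Tnnt2 held 98.2% and 98.5% at P3 and 98.3% and 98.2% at P12 of the pair with Tnnt1. Actc1 held 98.9% and 99.2% at P3 and 99.6% in each P12 library of the pair with Acta1. The light chains Myl3 and Myl2 already held most of their pairs at P3, 98.9% and 99.9% with Myl4 and 94.5% and 99.9% with Myl7.

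Other fetal muscle genes fell less. Nppa, the atrial natriuretic peptide, had normalized counts of 3541 and 3569 at P3 and 617 and 1426 at P12, the P12 libraries differing more from each other than the P3 libraries (log2 change -1.92). Ankrd1, a stretch-responsive nuclear and sarcomere protein (-1.52), and Acta1, skeletal alpha-actin (-1.15), fell. The members that rose were Casq1, the skeletal form of the calcium store protein calsequestrin (1.75), Tnnt1, slow skeletal troponin T (0.52), and Tnnt3, fast skeletal troponin T (1.06). The call of Tnnt3 held in 1 of the 4 leave-one-out fits, and those of Tnnt1 and Tnnt3 were lost in the fit over all 8 libraries. Casq1 had normalized counts of 560.2 and 391 at P3 and 1781 and 1392 at P12, against 399 at P6 and 581 at P24; of 11695 genes with a stage mean of at least 100, it was the only one at least 2-fold higher in both P12 libraries than in each of the 6 other libraries, and none was 2-fold lower.

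**Figure D3:**
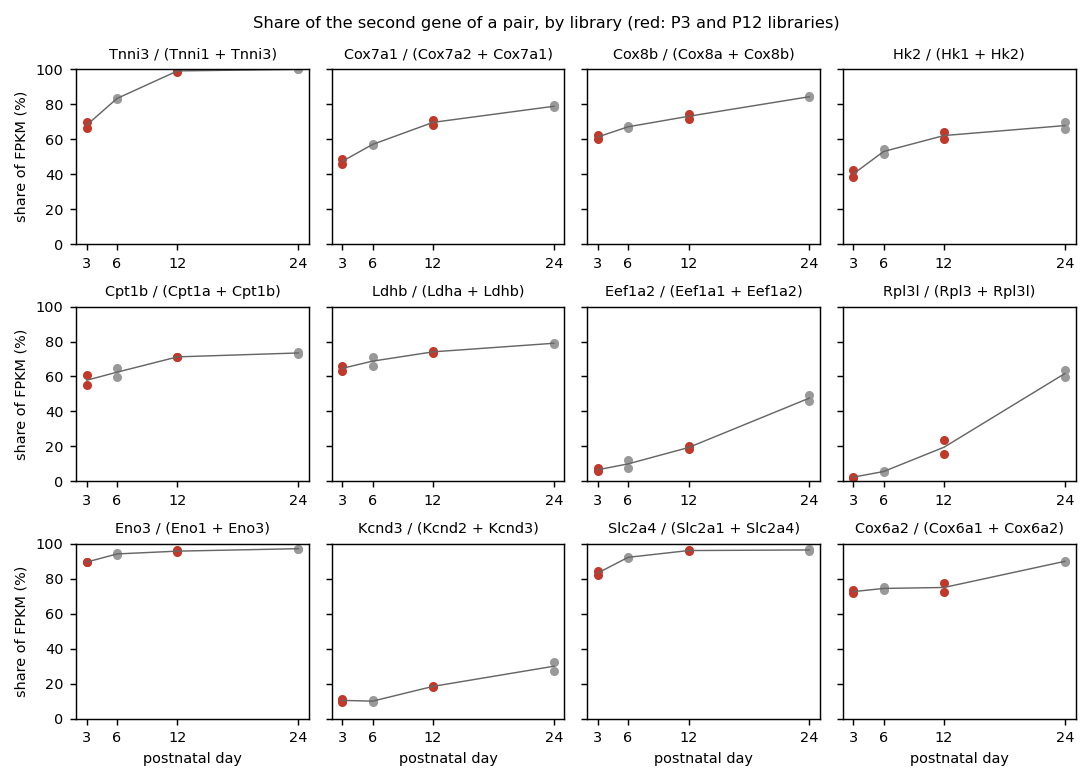
Share of the second gene in the summed FPKM of a gene pair (vertical axis, %) against postnatal day (horizontal axis) for 12 pairs, with each point 1 library, P3 and P12 in red and P6 and P24 in grey, and lines through stage means. Tnni3 went from 69.9% and 66.4% at P3 to 99.6% and 98.6% at P12, while Rpl3l was at 23.7% and 15.4% at P12 and 63.9% and 59.5% at P24.

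Among the adult genes, Ckmt2, the mitochondrial creatine kinase of striated muscle, had normalized counts of 5457 and 7461 at P3 and 61748 and 54781 at P12, a 9.02-fold rise at a log2 change of 3.19 (SE 0.15, BH-adjusted p = 3.16e-06 in limma). Rpl3l, the striated muscle form of a ribosomal protein (3.03), and Cox7a1, a heart and muscle form of a cytochrome c oxidase subunit (2.16), were next. Rpl3l held 2.10% and 2.69% at P3 and 23.7% and 15.4% at P12 of the FPKM of Rpl3 and Rpl3l. Mb, the oxygen store myoglobin (1.70), Tcap, a cap of titin at the Z-disc (1.80), and Myl3, the ventricular essential light chain (1.19), rose, while Myl2 (-0.17), Actc1, cardiac actin (-0.06), and Mybpc3, myosin-binding protein C (-0.02), did not pass the threshold. The 4 adult genes that fell were Ttn, the giant spring titin (-1.13), Actn2, Z-disc actinin (-0.67), Ldb3 (-0.40) and the M-band gene Myom2 (-0.35). Ttn had normalized counts of 129140.2 and 119191 at P3 and 56092 and 57641 at P12 and a P24 mean of 109753; once the gene length trend was removed its change was -0.26 and not called. The calls of Actn2, Ldb3 and Myom2 were lost in the fit over all 8 libraries, and those of Ldb3 and Myom2 in 3 of the 4 leave-one-out fits.

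Promoters of 3 adult muscle genes that hold a loose form of the MEF2 motif are shown. The letters searched were CTA and TAG with 4 bases of any kind between them, and a match shows no binding. These genes are examples with the letters that fell (Ttn) and rose (Xirp2 and Myoz2). Matches on either strand are in capitals; the motif reads the same on both strands.
Ttn (chr2:76982648-76982747, minus strand): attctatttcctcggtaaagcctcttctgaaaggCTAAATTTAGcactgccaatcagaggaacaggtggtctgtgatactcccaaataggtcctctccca
Xirp2 (chr2:67445882-67445981, plus strand): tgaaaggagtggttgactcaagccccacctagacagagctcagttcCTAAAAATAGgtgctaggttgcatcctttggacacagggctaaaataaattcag
Myoz2 (chr3:123034988-123035087, minus strand): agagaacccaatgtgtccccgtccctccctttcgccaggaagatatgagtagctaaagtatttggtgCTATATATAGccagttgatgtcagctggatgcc
The letters were present in 5 of 35 windows of adult muscle genes (14.3%) against 2.83% of all windows. Of the 5 genes with a match, Xirp2, a protein of the intercalated disc, rose (1.36), as did Myoz2, a calcineurin-binding protein of the Z-disc (0.91), whereas Ttn and Ldb3 fell and Mybpc3 did not pass the threshold. Of the 23 genes with a window that lacked it, 15 rose and 1 fell.

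Calcium handling and membrane channel genes were divided. Of 28 genes of calcium handling 7 rose and 6 fell, and of 28 potassium and sodium channel and gap junction genes 11 rose and 10 fell. The calcium counts are near the shares of all genes, 21.6% rising and 25.9% falling. Without P12 replicate 1 the lists had 4 and 6 rises, and without P12 replicate 2 the channel falls were 6. Removal of the gene length trend gave 12 rising and 6 falling calcium genes, and scaling by library size alone gave 6 and 14. S100a1, a calcium sensor of the calcium pump and release channel, rose (1.41), with normalized counts of 4342 and 4673 at P3 and 11399 and 12614 at P12, and Hrc, a calcium-binding protein of the sarcoplasmic reticulum, rose as well (1.23). The fetal T-type channel gene Cacna1h had 911 and 1023 at P3 and 348 and 299.6 at P12 (-1.58), and the sodium-calcium exchanger gene Slc8a1 (-1.24) and the calcium release receptor gene Itpr2 (-1.06) fell too. The calcium pump gene Atp2a2 (0.43), its inhibitor Pln (0.22) and the release channel Ryr2 (-0.24) did not pass the threshold. Among channels, Scn4b, a sodium channel subunit (2.55), Hcn2, a pacemaker channel (1.93), and Kcnd3, a subunit of the transient outward current (1.83), rose. Kcnd3 had normalized counts of 43.3 and 39.3 at P3 and 196 and 113 at P12, with P12 replicate 1 well above P12 replicate 2. The channel and gap junction genes that fell most were Gja5, connexin 40 (-1.41), Gja1, connexin 43 (-0.86), and Kcnq1, a delayed rectifier subunit (-0.82). Gja5 is also a marker of atrial muscle, and its normalized counts were 746 and 645 at P3 and 300.3 and 224 at P12.

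Mitochondrial energy genes rose as whole pathways. Of 69 nuclear genes of the respiratory chain and ATP synthase 66 rose and none fell, with a median of 0.94. The 3 not called were Ndufv3 (0.06), Atp5g2 (0.24) and Atp5o (0.25). Many of these genes are short: with the gene length trend removed 61 rose and none fell, with a median of 0.66. By library, the list's mean log2 level was -0.04 and 0.04 at P3 and 0.85 and 0.99 at P12, beside 0.68 and 0.72 at P24. The P6 libraries lay far apart, at 0.08 and 0.85. Ndufb2, an accessory subunit of complex I, had normalized counts of 3619 and 3668 at P3 and 8643 and 10630.1 at P12, and Uqcrq, a subunit of complex III, had 11145 and 11118 at P3 and 25450.5 and 29804 at P12. Both P12 libraries were more than 2-fold above both P3 libraries, at log2 changes of 1.40 (SE 0.12, BH-adjusted p = 3.18e-05 in limma) and 1.31 (SE 0.12, BH-adjusted p = 4.14e-05 in limma).

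The citric acid cycle and the entry of pyruvate moved the same way, with 22 of 26 genes rising, none falling and a median of 0.76, or 23 and 0.80 with the length trend removed. After quantile normalization 17 rose and 1 fell, with a median of 0.52, and 15 rose in the fit over all 8 libraries. Mpc1, a subunit of the carrier that brings pyruvate into mitochondria, had normalized counts of 2226 and 2161 at P3 and 7174 and 7068 at P12 (log2 change 1.70, SE 0.09, BH-adjusted p = 5.33e-06 in limma), and its partner Mpc2 (1.37) and Sdhb, the iron-sulfur subunit of succinate dehydrogenase (1.25), also rose. Pcx, pyruvate carboxylase (-0.19), Ogdh (0.02), Idh2 (0.05) and Suclg2 (0.26) did not pass the threshold. Most messenger RNAs encoded in the mitochondrion did not pass the threshold: of 11 tested, 2 were called as rising, mt-Co3 (0.95) and mt-Nd6 (0.46), and no gene of the list was called as rising without either P12 library. Those rises were near the share of all genes tested, 21.6%. After quantile normalization 1 rose and 2 fell, and with the length trend removed none rose, 1 fell and mt-Nd6 turned to -0.15. Their share of all reads was 9.64% and 10.7% at P3 and 13.3% and 10.98% at P12. Copies of mitochondrial genes in the nucleus may share their reads.

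Respiratory chain subunits with muscle and general forms changed their balance to different degrees. Cox7a1 held 46.1% and 48.7% at P3 and 70.95% and 68.4% at P12 of the FPKM of Cox7a2 and Cox7a1, and Cox8b held 62.4% and 60.2% at P3 and 74.6% and 71.7% at P12 of the FPKM of Cox8a and Cox8b. For both pairs every P12 library lay above every P3 library. In contrast Cox6a2 held 71.6% and 73.7% at P3 and 77.3% and 72.7% at P12 of the pair with Cox6a1, where the stages overlap, and at P24 it held 89.8% and 90.1%.

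Fatty acid genes rose in part. Of 43 tested, 22 rose and 6 fell, with a median of 0.45. Dgat2, which makes triglyceride, had normalized counts of 1896 and 1877 at P3 and 6251 and 5016 at P12 (log2 change 1.57, SE 0.12, BH-adjusted p = 1.93e-05 in limma), and Acad11, an acyl-CoA dehydrogenase (1.18), and Plin5, a coat protein of lipid droplets (1.08), rose. Steps of beta oxidation inside the mitochondrion were among those that rose, such as Acadm (0.85), Hadhb (0.78) and Echs1 (1.05). The 6 that fell included Acsl3, an acyl-CoA synthetase (-1.88), the thioesterases Acot1 (-1.34) and Acot2 (-0.85), Cpt1a, the carnitine palmitoyltransferase of liver and fetal heart (-0.93), and Angptl4, an inhibitor of lipoprotein lipase (-0.75). Acot1 and Acot2 are so alike in sequence that counting may have split their reads, and their separate values are uncertain. Cpt1b, the muscle form, did not pass the threshold (-0.08), and its share of the pair was 54.9% and 60.8% at P3 and 71.4% and 71.01% at P12.

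Genes of glucose entry and glycolysis were divided, with 10 of 30 rising and 7 falling, or 9 and 12 when scaled by library size alone. Of all genes tested 21.6% rose and 25.9% fell, and the list's median of -0.05 was close to the -0.04 of all genes. Slc2a1, the fetal glucose transporter, fell, with FPKM of 6.50 and 6.45 at P3 and 2.005 and 2.43 at P12, while Slc2a4, the insulin-responsive transporter, rose, with FPKM of 30.3 and 34.5 at P3 and 54.6 and 55.4 at P12. Every P12 library lay beyond both P3 libraries for each transporter. Hk2, the muscle hexokinase, made up 42.2% and 38.1% at P3 and 63.9% and 60.3% at P12 of the FPKM of Hk1 and Hk2. Pdk3, a kinase that shuts pyruvate dehydrogenase, fell (-1.79), and Pfkfb2, the heart form of the enzyme that makes the activator of phosphofructokinase, rose (1.06). Eno3, muscle enolase, rose (0.85) and Eno1, the general form, fell (-0.56). For lactate dehydrogenase, Ldhb rose (0.75) and Ldha did not pass the threshold (0.11), and the call of Ldhb was lost in the fit over all 8 libraries.

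Regulators of energy genes were divided as well. Of 16 PPAR, PGC-1 and ERR regulators 7 rose and 5 fell, with 4 rises without P12 replicate 2. Beside these counts, 21.6% of all genes tested rose and 25.9% fell. The coactivators Ppargc1b (-1.40) and Ppargc1a (-0.47) fell, as did the nuclear receptor Esrrg (-0.90), which had normalized counts of 1078 and 978 at P3 and 593 and 512 at P12 and a P24 mean of 1451. Members that rose included Pparg (0.83), Mlxipl, a glucose-responsive factor (0.82), and Klf15, a factor of fasting and fuel choice (0.81); the call of Mlxipl was lost without P12 replicate 2. Ppara (0.18) and Nrf1 (-0.11) did not pass the threshold.

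Counts of ribosomal protein genes, which are short, varied with the scaling, the fit and the libraries used. Of 49 tested, 18 rose and 3 fell, with a median of 0.30. The counts were 6 and 5 when scaled by library size alone, 6 and 8 after quantile normalization, 1 and 0 in the fit over all 8 libraries, and 5 and 10 with the length trend removed, where the median was 0.00. Without P12 replicate 2, 3 rose. Rps2 had normalized counts of 15543 and 15583 at P3 and 25951 and 24983 at P12 (0.71). In translation elongation, Eef1a2, the form of muscle and neurons, held 7.41% and 5.81% at P3 and 20.1% and 18.5% at P12 of the FPKM of Eef1a1 and Eef1a2, with Eef1a1 falling (-0.92) and Eef1a2 rising (0.85).

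The retinoic acid pathway, in which retinol is oxidised in 2 steps to the ligand of nuclear receptors, had 21 tested genes, of which 5 rose and 6 fell, near the 21.6% and 25.9% of all genes. The counts were 4 and 2 in the fit over all 8 libraries, and 3 rose without P12 replicate 1. Among the enzymes that make retinoic acid, Aldh1a1 rose, with normalized counts of 184 and 129 at P3 and 426 and 306 at P12 (log2 change 1.23, SE 0.22, BH-adjusted p = 0.00151 in limma), while Aldh1a2, the main enzyme of the embryonic heart and epicardium, fell, with normalized counts of 1634 and 1666 at P3 and 1145 and 1251 at P12 (log2 change -0.46, SE 0.10, BH-adjusted p = 0.00515 in limma). In both genes the stages did not overlap, and the changes had opposite signs. Aldh1a3 (0.30), Rdh10 (-0.01), Rdh11 (-0.13) and Rdh13 (-0.17) did not pass the threshold. The reductases Dhrs3 and Dhrs4 each rose by 0.50 (log2). Lrat, which stores retinol as esters, was called as rising from low values, 7.38 and 2.18 at P3 and 43.2 and 23.1 at P12. It passed the filter through its P12 values alone. Cyp26b1, which breaks retinoic acid down, had 64.3 and 36.02 at P3 and 40.04 and 31.8 at P12, and Cyp26a1 and Cyp26c1 were too low to be tested.

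Among retinoid receptors, Rxrg rose and Rara and Rxra fell. Rxrg had normalized counts of 151 and 163 at P3 and 1714 and 1652 at P12, a 10.7-fold rise with little spread (log2 change 3.42, SE 0.12, BH-adjusted p = 5.86e-07 in limma). Rara had 793 and 567 at P3 and 275 and 249 at P12 (-1.35) and Rxra 1774 and 1689.8 at P3 and 1212 and 1089 at P12 (-0.59), and the call of Rxra was lost in the fit over all 8 libraries. Rarb (0.18), Rarg (0.23) and Rxrb (0.06) did not pass the threshold. The corepressor Ncor1 fell (-0.34), but its call was lost in the fit over all 8 libraries and without P3 replicate 1 or P12 replicate 2, and with the length trend removed its direction turned, to 0.049. Of the binding proteins, Rbp7 (0.26) and Fabp5 (0.31) did not pass. Crabp1, Crabp2, Rbp4, Stra6 and Bco1 were too low to be tested. The calls of Dhrs4 and Lrat were lost without P12 replicate 1, and that of Dhrs4 in the fit over all 8 libraries.

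Genes of thyroid and stress hormone signalling gave 2 rises and 5 falls among 12, with 3 falls without P12 replicate 2. The share of all genes tested was 21.6% rising and 25.9% falling. Thrb, a thyroid hormone receptor, had normalized counts of 100.2 and 57.9 at P3 and 340.4 and 246 at P12 (log2 change 1.91, SE 0.27, BH-adjusted p = 0.000452 in limma), and Thrsp, a thyroid hormone-responsive gene of lipid synthesis, had 69.6 and 69.9 at P3 and 413 and 479.7 at P12 (log2 change 2.66, SE 0.17, BH-adjusted p = 9.30e-06 in limma). Both were higher in every P12 library. The activating deiodinase Dio2 (-0.89) and Fkbp5, a chaperone induced by glucocorticoid (-0.78), fell, as did the receptors Thra (-0.43) and Nr3c2 (-0.43), whose calls were lost in the fit over all 8 libraries. Circadian clock genes gave 4 rises and 4 falls among 19, close to the 21.6% and 25.9% of all genes. They gave 1 rise and 1 fall in the fit over all 8 libraries, 1 rise without P12 replicate 1 and 1 fall without P12 replicate 2, and 2 falls with the length trend removed. The largest changes among them were those of Arntl, the core activator, with 233 and 236 at P3 and 395 and 401 at P12 (0.76), and Npas2, its partner (-0.81). The labels do not give the hour of collection.

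Genes of the extracellular matrix mostly fell. Of 50 matrix genes 30 fell and 9 rose, with a median of -0.65, or 28 and 8 with a median of -0.40 once the gene length trend was removed. In the fit over all 8 libraries 20 fell and 5 rose. Col11a1, a minor fibrillar collagen, had normalized counts of 437 and 368 at P3 and 24.2 and 42.4 at P12 (log2 change -3.60, SE 0.26, BH-adjusted p = 1.78e-05 in limma), and Spp1, osteopontin (-2.56), and Fbn2, the fetal fibrillin (-2.38), fell. Col1a1, the main collagen of fibroblasts, had 37995 and 11768 at P3 and 5117 and 5145 at P12. P3 replicate 1 was far above P3 replicate 2, but both were above either P12 library (log2 change -2.04, SE 0.40, BH-adjusted p = 0.00272 in limma); this call was lost in the fit over all 8 libraries. The 9 that rose included Cilp, a cartilage and fibroblast matrix protein (3.14), Col8a1, a short-chain collagen (1.72), and Col4a3, a basement membrane collagen (1.31). Cilp had normalized counts of 79.1 and 26.2 at P3 and 440.5 and 381 at P12.

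Markers of other cells moved beside these groups. Of 13 fibroblast markers, among them the matrix genes Col1a1, Dcn and Lum, 9 rose and 1, Col1a1, fell, and their summed normalized count was 74287 and 42159 at P3 and 58667 and 56666 at P12. Pi16, of adventitial fibroblasts, had 295 and 279 at P3 and 2818 and 2684 at P12 (log2 change 3.25, SE 0.11, BH-adjusted p = 5.86e-07 in limma), Mfap5 (1.41) and Scara5 (1.318) rose, while Pdgfra (-0.12) and Tcf21 (-0.30), which mark fibroblasts broadly, did not pass the threshold. Of 10 atrial muscle markers 8 fell and 1 rose, with 5 falls without P12 replicate 2; their sum was 14269 and 6522 at P3 and 2880 and 3463 at P12. Bmp10, an atrial growth factor, had normalized counts of 18.99 and 57.9 at P3 and 0 and 0 at P12. It passed the filter through its P3 values alone. The part of atrial tissue in the values of Myl4, Myl7, Nppa and Gja5 was not tested, and that of the fibroblast markers in the matrix values was not tested.

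**Figure D4:**
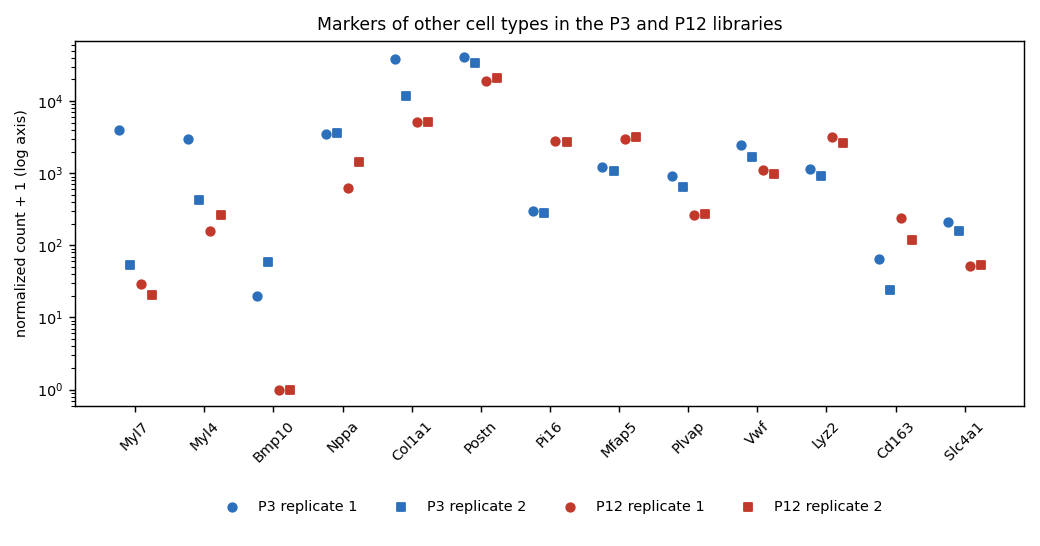
Normalized count + 1 (vertical axis, log scale) of 13 marker and matrix genes in the 2 P3 libraries (blue) and the 2 P12 libraries (red), with replicate 1 as circles and replicate 2 as squares. P3 replicate 1 stands above P3 replicate 2 for Myl7, Myl4 and Col1a1, below it for Bmp10 and about level with it for Nppa. Pi16, Mfap5 and Lyz2 are higher in both P12 libraries.

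Macrophage genes rose and none fell: 13 of 18 passed the threshold, with a median of 1.09, and their sum went from 6585 and 5341 at P3 to 12795 and 11169 at P12. Lyz2, lysozyme, had normalized counts of 1149 and 909 at P3 and 3180.1 and 2612 at P12 (1.49), and Folr2, a marker of resident macrophages, had 15.8 and 12.01 at P3 and 112 and 96.3 at P12 (log2 change 2.82, SE 0.28, BH-adjusted p = 7.99e-05 in limma). Cd163, another resident marker, rose (2.11), a call lost without P12 replicate 1. Antigen presentation gave 11 rises and 1 fall among 17 genes (median 0.87), led by Psmb9 and Psmb8, subunits of the immunoproteasome, with 1.86 and 1.43. Psmb9 had 79.1 and 45.8 at P3 and 229 and 214 at P12. Of 28 interferon response genes 16 rose and 1 fell, with a median of 0.63, and Isg15, a ubiquitin-like protein, had 83.3 and 90.6 at P3 and 191 and 185 at P12 (1.10); without P12 replicate 1 the number that rose was 6. The member that fell was Ifit2 (-0.57).

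Vessel cell genes changed in subsets. Beside the counts that follow, 21.6% of all genes tested rose and 25.9% fell, and the epicardial falls were near that share. Of 19 endothelial genes 9 rose and 3 fell, with 5 rises without P12 replicate 1 and 4 in the fit over all 8 libraries, while of the general markers Pecam1 was called as rising (0.31; the call held in 1 of the 4 leave-one-out fits and was lost in the fit over all 8 libraries) and Cdh5 (0.09) and Kdr (0.11) did not pass the threshold. Rgcc (1.39), the water channel gene Aqp1 (1.23) and the fatty acid carrier gene Fabp4 of capillaries (0.92) rose, and Npr3, of endocardium (-1.74), Plvap, of fenestrated vessels (-1.51), and Vwf (-0.98) fell. Of 12 pericyte and smooth muscle genes 5 rose and 4 fell, with Vtn (2.29), Kcnj8 (1.68) and Higd1b (1.61), markers of pericytes, among the rises. Other pericyte markers fell, Cspg4, with normalized counts of 1871 and 1898 at P3 and 961 and 918 at P12, and Abcc9 (-0.66), as did the smooth muscle gene Cnn1, the largest fall of the list at -4.10. Of 11 epicardial genes 1 rose and 3 fell, but 5 rose without P3 replicate 1 and 6 fell without P3 replicate 2. Red blood cell genes gave 0 rises and 1 fall, Slc4a1 (-1.78; lost in the fit over all 8 libraries), among 8, with 4 rises without P3 replicate 2 and 4 falls without P3 replicate 1; their sum varied within stages, from 14849 and 40594 at P3 to 25732 and 45080 at P12. Lymphocyte and granulocyte genes gave 3 rises and 1 fall among 9, with 1 rise without P12 replicate 1, none without P12 replicate 2 and 4 falls with the length trend removed. Nerve and glia genes gave 1 and 1 among 7, and none of either without P12 replicate 1 or without P12 replicate 2. Lung and thymus genes, which would mark other organs of the chest, were too low to be tested apart from Ager.

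Over the whole course, P12 was a different distance along the way for each group. Relative to P3, the mean log2 level of imprinted and fetal growth genes was -0.52 and -1.04 in the P6 libraries, -1.96 and -1.84 at P12 and -2.55 and -2.50 at P24. For macrophage genes it was 0.19 and 0.45, 1.52 and 1.29, and 2.45 and 2.40. Cardiac transcription factors were lowest at P12, at -0.99 and -1.05, against -0.70 and -0.68 at P24. These courses are descriptions of the same P3 libraries set against each other stage, and no test was made of their shape.

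**Figure D5:**
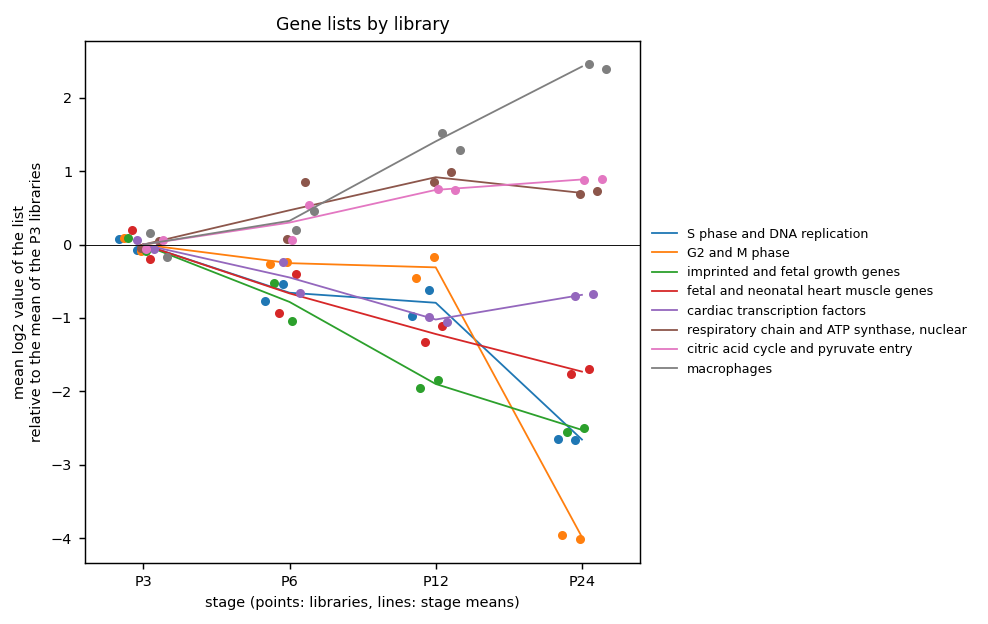
Mean log2 level of 8 gene lists relative to the mean of the P3 libraries (vertical axis) at P3, P6, P12 and P24 (horizontal axis, stages evenly spaced), with each point 1 library and lines through stage means. At P12 the respiratory chain list lies at 0.85 and 0.99 and the list of imprinted and fetal growth genes at -1.96 and -1.84, while the fall of the G2 and M phase list is larger at P24 than at P12.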

How the data were processed

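RNA of whole ventricles was measured by poly(A)-selected RNA sequencing (RNA integrity number at least 7, per the labels' protocols). The deposited normalized read signal per gene was made by the authors; every value was a whole multiple of 1 library-specific read value (100% within 0.001), so reads were recovered. The deposited FPKM values, also by the authors, were a fixed multiple of that signal for each gene and were used only for levels between genes. Tools listed, per the submitters' processing notes, were DESeq2 1.32.0, HTSeq 0.11.2, STAR 2.7.3a and Trim Galore 0.6.4, with the genome build GRCm39; roles and strand setting are not given.

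Genes with a value of at least 10 in 2 or more of the 4 libraries were tested with limma 3.58.1 (R 4.3.3) on log2(normalized count + 1), with a variance trend and BH adjustment over all 13774 genes; fold changes on this scale understate those of low genes. The fit used the P3 and P12 libraries alone. Alternatives used edgeR 4.0.16 and DESeq2 1.42.0 on recovered reads, other scalings and filters, a trend with gene length removed by lowess, and fits with a library left out. The test code was checked on simulated data. Promoters were matched by symbol in a RefSeq table (GRCm38.p6) for 10832 of 13769 symbols tested, and 5 motifs were searched.

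The gene lists and members were chosen with earlier results of these data known. Genes named were the 10 largest rises and falls with a stage mean of at least 100, the 3 largest of each list in either direction under the same minimum, isoform pairs, all retinoic acid genes and cell cycle inhibitors, and the 5 smallest standard errors among changes of at least 2 (log2), except for some genes that are not reported here. Genes outside that rule, mostly other list members such as Igf2, Igf2r, Bmp10, the Mcm genes, Cdc6, Pcna, Cdk1, Cdc20, Gata4, Gata6, Hand2, Mef2a, Mef2c, Mef2d, Ankrd1, Tnnt3, Mb, Tcap, Mybpc3, Myom2, Xirp2, Myoz2, Atp2a2, Pln, Ryr2, Scn4b, Acadm, Hadhb, Echs1, Ppara, Ppargc1a, mt-Co3, Thra and general cell markers, were chosen after their values were seen.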

Additional observations from a re-analysis of the deposited data

How the results depend on the processing

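The number of genes changed from P3 to P12, 6545 with 2977 rising and 3568 falling, lay between 5728 and 7006 under other scalings, filters, pseudocounts and tools and in a fit of 6 libraries without P6. It was 3432 (1608 genes rising, 1824 genes falling) in 1 fit of all 8 libraries, where the P6 pair enters the spread, and 327 (143 genes rising, 184 genes falling; 327 genes changed at least 2-fold) when tested against a log2 change of 1. Leaving out each library gave 4014 to 6902 genes changed, 1822 to 3173 genes rising, 2192 to 3729 genes falling and 1539 to 2101 genes changed at least 2-fold from P3 to P12; the lowest came without P12 replicate 2 and the next, 4421, without P12 replicate 1. With the replicate number as a block, 7321 genes changed (3329 rising, 3992 falling; 1749 at least 2-fold); same-numbered libraries deviated together at r = 0.192 over only 2 pairs, so the numbers are not taken to pair the libraries. With the gene length trend removed the sign changed for Cox6a2 (-0.52), Cox8a (-0.15), mt-Nd6 (-0.15), Ncor1 (0.049) and the Rplp1 log2 change (-0.003); the construction of that alternative moves short and long genes apart, and no other setting reversed a named gene. Of 182 named genes called, 145 held whichever of the 4 libraries was left out and 142 in the fit of 8 libraries. With 2 libraries per stage and 2 residual degrees of freedom, a change that missed the threshold does not show that the stages were alike.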

Other observations

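Values that belong to no comparison above describe P12 against all other stages. Among 11695 genes with a mean normalized count of at least 100 at some stage, both P12 libraries lay above all 6 other libraries for 628 genes and below all of them for 1164. Beyond Casq1, no gene was 2-fold clear of the other stages in either direction.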
